A study of Mus musculus with 6 samples.

Results

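Amino acid transporter genes were compared between 2 populations of sorted mouse bone marrow cells. Genes were taken by their symbols, from the Slc1a, Slc3a, Slc7a, Slc36a, Slc38a and Slc43a families, whatever their values. The rule found 42 genes of the 18193 genes that the arrays measured by a probe set with a single gene symbol. Of these, 40 are transporters or transporter subunits by name, and Slc36a1os and Slc7a6os are named for lying opposite a transporter gene. Where several probe sets had that one symbol, the gene was read from the probe set whose mean over all 6 arrays was highest.

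The Gr1lo group (3 arrays) and the Gr1hi group (3 arrays) were both sorted from femur and tibia marrow of C57BL/6 mice that carry the Hdc-GFP reporter. The reporter makes cells fluoresce where Hdc, the gene of the histamine-forming enzyme, is active. All cells of both groups were GFP-positive or GFP-high and CD11b-positive, and the groups differ in the surface antigen Gr1, which is low in one and high in the other. All mice are labelled female, no age is given, and the labels do not say whether replicates were separate animals, so p-values measure the spread between these samples only. Values are log2 GCRMA probe set values, every difference is Gr1lo minus Gr1hi, and a gene is called where its limma p adjusted by Benjamini-Hochberg over all tested genes is below 0.05.

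Amino acids cross membranes on carriers that differ in substrate, in the ion that drives them and in the membrane they occupy. The Slc7 light chains reach the cell surface bound to a heavy chain, Slc3a2 or Slc3a1, and mostly exchange one amino acid for another. The Slc38 carriers and the neutral Slc1 carriers depend on sodium, the other Slc1 carriers take up glutamate, Slc36a1 moves amino acids together with protons, also out of lysosomes, and the Slc43 carriers work by facilitated diffusion. Imported amino acids feed protein and nucleotide synthesis, signal to the kinase mTORC1 at the lysosome and, when scarce, induce carrier genes through the transcription factor ATF4. ATF4 with a C/EBP partner binds the CARE element, whose core is TGATGNAA, and MYC, TFE3 and TFEB bind the E-box CACGTG.

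Before the results, the arrays were set against their labels. The Y-linked gene Eif2s3y read 9.02 to 10.66 on all 6 arrays, which goes against the label female, and Xist read 10.95 on Gr1lo replicate 3 and 10.14 on Gr1hi replicate 3, against 1.97 to 2.43 on the other 4 arrays. The description of Gr1lo replicate 3 is also ambiguous, since its hyphen after GFP could be a minus sign. Counts are therefore given with and without both replicate 3 arrays. Neutrophil markers were present on every array, with 0 of 13 measured markers at background. Elane, the neutrophil elastase gene of immature stages, was 6.99 higher in Gr1lo, and Cxcr2, a chemokine receptor of mature neutrophils, was 2.99 lower in Gr1lo (-2.99). The monocyte and macrophage markers summed to 37.7 to 45.0 in Gr1lo and 43.8 to 51.8 in Gr1hi (sums of log2 values over 7 genes), with Csf1r (-4.01) and Adgre1 (-2.99) called lower in Gr1lo, F13a1 called higher (0.98) and the other 4 not called (-0.72 for Ccr2 to 0.69 for Irf8). The 6 basophil and mast cell markers summed to 27.1 to 31.6 in Gr1lo and 21.0 to 31.3 in Gr1hi, with Kit (1.94) and Ms4a2 (1.64) called higher in Gr1lo, Mcpt8 (0.66), Cpa3 (-0.87) and Gata2 (-0.20) not called, and the mean of Fcer1a at background in both groups. Mcpt8 (7.44 in Gr1lo, 7.74 in Gr1hi), Fcer1a (2.87 and 3.88) and Cpa3 were highest on replicate 3 in both groups. Kit, Ms4a2 and Gata2 were not so in both groups. Of the monocyte and macrophage markers, Ccr2, Cx3cr1, Ms4a6c, F13a1 and Irf8 were also highest on replicate 3 in both groups, and Csf1r and Adgre1 were not. The difference between 3' and 5' actin probe sets was 0.77 to 0.94 in Gr1lo and 0.65 to 0.76 in Gr1hi. For Gapdh it was 0.25 to 0.45 in Gr1lo and 0.14 to 0.35 in Gr1hi, so the groups overlapped. The part of RNA quality, and of these cells and stages in the results below was not tested, and in bulk samples fewer cells of a type and less RNA per cell cannot be told apart.

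Sequences are shown for the members whose promoter window, 250 bases before to 50 bases after the start site in RefSeq (GRCm38.p6), held one of these motifs and that were called between the groups. A window was found for 31 of the 42 members. On either strand, TGATGNAA was found in 3.97% of all 32851 windows and CACGTG in 7.15%. The CARE core was in 4 of the members' 42 windows, from 3 members, Slc7a11, Slc1a4 and Slc7a7. The E-box was in 7 of these 42 windows, from 7 members, of which Slc36a1 was the called one. Capitals mark the motif in the stretches below, which run 5′ to 3′ on the strand of the gene. A match is a run of letters and says nothing of binding.
Slc7a11: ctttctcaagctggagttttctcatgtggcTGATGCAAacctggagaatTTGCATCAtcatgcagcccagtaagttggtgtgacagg
Slc1a4: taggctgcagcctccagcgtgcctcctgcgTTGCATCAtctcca
Slc7a7: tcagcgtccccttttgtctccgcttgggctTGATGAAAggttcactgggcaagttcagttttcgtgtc
Slc36a1: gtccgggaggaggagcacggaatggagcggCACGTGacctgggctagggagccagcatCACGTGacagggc

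The Slc7a11 stretch is chr3:50443623-50443709 on the minus strand, and it holds the motif on the gene's strand at -66 and on the opposite strand at -47 from the start site. The Slc1a4 stretch is chr11:20332704-20332747 on the minus strand, with the motif on the opposite strand at -4. The Slc7a7 stretch is chr14:54418048-54418115 on the minus strand, with the motif at -141. The same Slc7a7 window held it again at -1, and another Slc7a7 window held it at -243, neither of them shown. The Slc36a1 stretch is chr11:55204279-55204349 on the plus strand, with its E-boxes at -31 and -3. No motif in these stretches overlapped another. The windows of Slc7a1, Slc36a4, Slc43a2, Slc38a6, Slc3a2 and Slc38a2 held neither run of letters. Slc1a5, Slc38a1, Slc43a3 and Slc7a5 had no window in the table.

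Of the 42 genes, 18 were above background in both groups, 5 in one group only and 19 in neither. Background was taken as the highest value of the 3 control probe sets for absent transcripts, 2.77. The 19 genes at background read no higher than 2.99 on any array. Among these were Slc1a1, Slc1a6 and Slc1a7, which carry glutamate, the heavy chain Slc3a1 with its partners Slc7a9 and Slc7a13, the cationic carriers Slc7a2 and Slc7a3, and the glutamine carriers Slc38a3 and Slc38a5. The rest were Slc7a4, Slc7a8, Slc7a10, Slc7a12, Slc7a14, Slc7a15, Slc36a2, Slc36a1os and Slc38a4. Slc38a8 and Slc38a11, were not analysed here. The filter on low values passed 25 of the 42 genes.

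Of the 25 tested genes 16 were called, 9 higher and 7 lower in Gr1lo. Over all 12732 tested genes 56.4% were called, 31.8% higher and 24.6% lower. The members' share is 64%, near that of all genes. Their median difference was -0.14, against -0.03 over all tested genes, and their median absolute difference was 0.65, against 0.47. Without both replicate 3 arrays 9 were called higher and 7 lower, of 24 tested, where 50.8% of all genes were called, 29.2% higher and 21.6% lower. Without the filter the same number of members, 16 of 42, was called, against 40.5% of all genes (22.2% higher and 18.4% lower). The split depends on the scaling. With arrays centred on the median of tested genes 6 members were higher and 15 lower, where 83.7% of all genes were called, 18.2% higher and 65.5% lower. With hybridization control centring 11 were higher and 3 lower, where 52.7% of all genes were called, 38.1% higher and 14.6% lower. These centrings moved the difference of all genes to a median of -0.70 and 0.23. Among the members, 9 kept call and direction under each of the 18 alternatives run on whole genes: Slc38a1, Slc43a3, Slc7a1, Slc36a4, Slc1a5 and Slc36a1 were higher in Gr1lo, and Slc7a11, Slc43a2 and Slc38a6 were lower. Still called, but with a value moved by over 1.5 times, were Slc38a1 (3.08), Slc7a1 (2.38), Slc1a5 (1.41), Slc43a2 (-1.14) and Slc38a6 (-0.62) with the mean of each gene's probe sets, and Slc36a1 (1.12) and Slc38a6 (-1.81) with median centring. The groups did not overlap in 17 of the 25, against 65.5% of all genes.

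**Figure D1:**
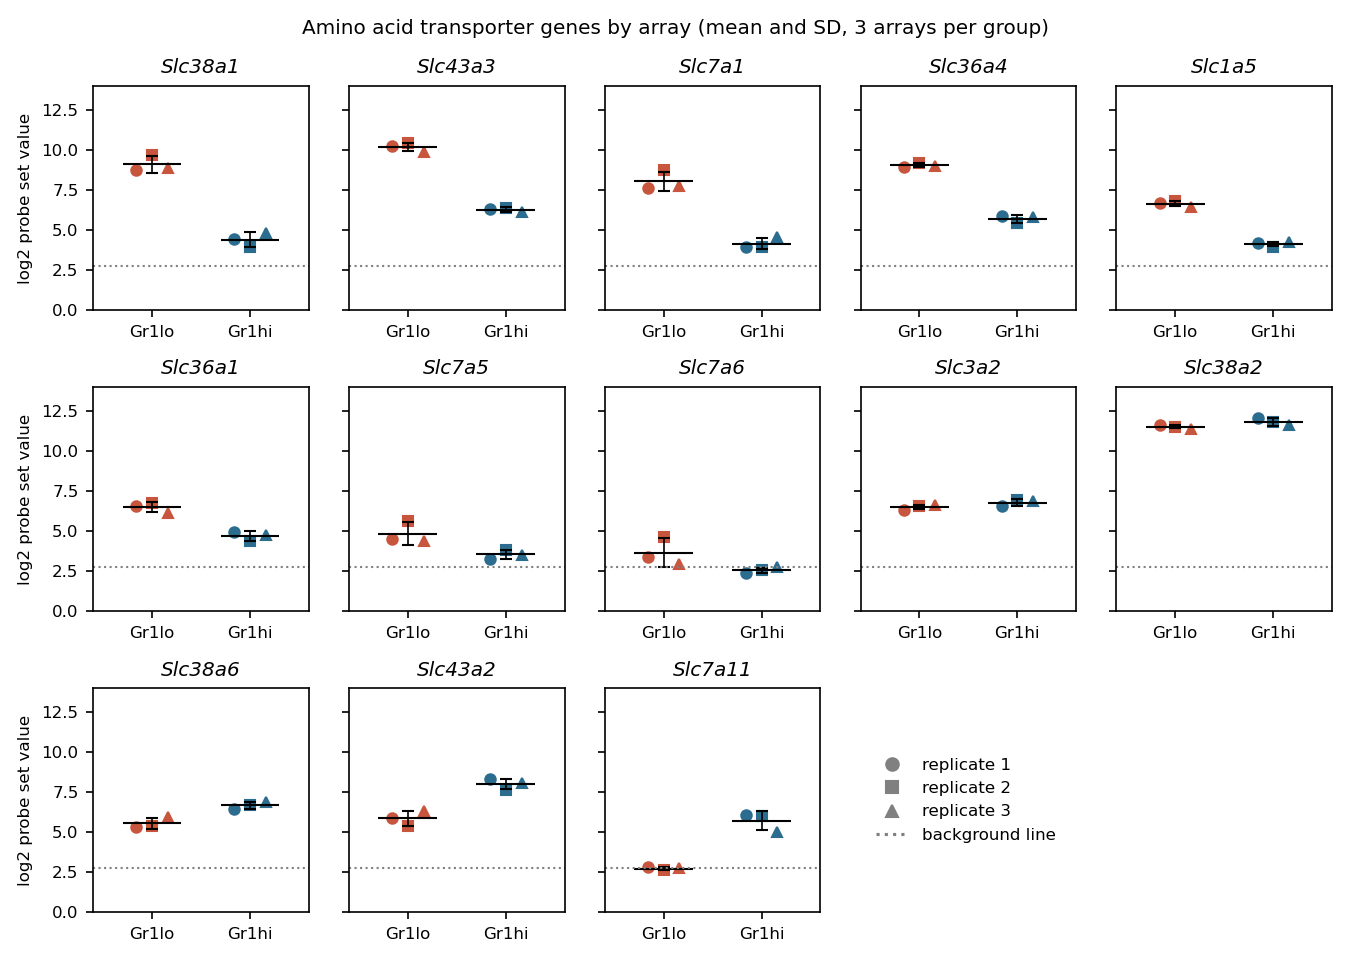
Log2 probe set values of 13 members on each array, Gr1lo left of Gr1hi, with the mean and SD of 3 arrays and a dotted line at background; probe sets of different genes are not comparable in level. Slc38a1, Slc43a3, Slc7a1 and Slc36a4 are higher on all Gr1lo arrays, and the Gr1lo mean of Slc7a11 lies at the background line.

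Among the tested sodium-coupled neutral carriers 2 were higher and 2 lower in Gr1lo, and one of them held the largest difference of the 25 tested members. Slc38a1, a sodium-driven importer of glutamine and other small neutral amino acids, read 8.74, 9.70 and 8.87 in Gr1lo, against 4.43, 3.94 and 4.85 in Gr1hi. Every Gr1lo array lay above every Gr1hi array. The difference was 4.70 ± 0.31 (SE, n = 3 per group), 25.9-fold, with an adjusted p of 1.77e-06. A second Slc38a1 probe set gave 1.47 (adjusted p = 0.000112 in a fit of single probe sets). Slc38a6, an orphan of this family, read 5.31, 5.41 and 5.93 in Gr1lo, against 6.44, 6.72 and 6.90 in Gr1hi, and was lower in Gr1lo by -1.14 ± 0.23 (adjusted p = 0.00188).

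Slc38a2, the carrier of the same substrates that cells induce under amino acid starvation, was bright in both groups. It read 11.61, 11.52 and 11.41 in Gr1lo, against 12.08, 11.79 and 11.60 in Gr1hi. Gr1lo replicate 1 lay just above Gr1hi replicate 3, so the groups overlapped. The difference of -0.31 ± 0.12 was not called (adjusted p = 0.0539). Its other probe sets read lower in Gr1lo, by -1.88 (adjusted p = 1.55e-05 in a fit of single probe sets) and by -0.59 (adjusted p = 0.018). The call for Slc38a2 depended on the setting. It was called lower in Gr1lo without both replicate 3 arrays (-0.37, adjusted p = 0.0499), without Gr1hi replicate 3 (-0.42, adjusted p = 0.0166), with the filter at the 60th percentile (adjusted p = 0.0468), with the replicate block (adjusted p = 0.0184), with the mean of its probe sets (-0.93, adjusted p = 0.000599) and with median centring (-0.99, adjusted p = 6.19e-05). The difference shrank to -0.18 without Gr1hi replicate 1 (adjusted p = 0.182) and to -0.05 with hybridization control centring (adjusted p = 0.786).

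The other Slc38 members had smaller differences. Slc38a9, the lysosomal carrier that signals arginine to mTORC1, was lower in Gr1lo by -0.78 (adjusted p = 0.0392), with 5.26, 4.82 and 5.93 in Gr1lo and 5.98, 6.05 and 6.30 in Gr1hi. All 7 of its probe sets read lower in Gr1lo, by -0.29 to -1.52. In a fit of single probe sets the one at -1.52 had an adjusted p of 0.00056. Those at -0.29 and -0.46 were not called (adjusted p = 0.104 and 0.0535), and the rest were. The call from the probe set that stands for the gene is fragile. It was lost on leaving out any single array other than Gr1lo replicate 3 (adjusted p from 0.0631 to 0.116) and with hybridization control centring (-0.52, adjusted p = 0.148). Slc38a10 was higher in Gr1lo by 0.46 (adjusted p = 0.00722), but its call was lost with the mean of its probe sets (0.09, adjusted p = 0.488), and the sign turned with median centring (-0.22, adjusted p = 0.11). A second bright Slc38a10 probe set gave -0.03, with 9.10 in Gr1lo and 9.13 in Gr1hi. It was not called (adjusted p = 0.88 in a fit of single probe sets). The next brightest gave 0.31 and was not called in that fit (adjusted p = 0.12). Slc38a7 was not called.

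Slc7a1, the carrier that takes up arginine, lysine and ornithine, was the one cationic carrier above background. It read 7.63, 8.74 and 7.78 in Gr1lo, against 3.98, 3.97 and 4.55 in Gr1hi. The groups did not overlap, and the difference was 3.88 ± 0.31 (adjusted p = 5.7e-06, 14.8-fold). A second Slc7a1 probe set, with its Gr1hi mean at background, was at least 10.6-fold higher in Gr1lo. Another lay at background in both groups.

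Among the light chains, Slc7a5 and Slc7a6 were higher in Gr1lo and Slc7a11 and Slc7a7 were lower. Slc7a5, the exchanger of leucine and other large neutral amino acids, read 4.51, 5.66 and 4.37 in Gr1lo, against 3.28, 3.86 and 3.54 in Gr1hi. The groups did not overlap, and the difference was 1.29 ± 0.33 (adjusted p = 0.00763). With median centring it was 0.61 and not called (adjusted p = 0.0931). Slc7a6, an exchanger of cationic for neutral amino acids, read 3.42, 4.66 and 2.93 in Gr1lo, against 2.39, 2.55 and 2.74 in Gr1hi, where it lay at background. It was at least 1.87-fold higher in Gr1lo (adjusted p = 0.0254). That bound leans on Gr1lo replicate 2, without which Slc7a6 was at least 1.32-fold higher (difference 0.62 in place of 1.11, adjusted p = 0.0116). The Slc7a6 call was lost with median centring (0.44, adjusted p = 0.245) and without Gr1hi replicate 1 (adjusted p = 0.075) or replicate 2 (adjusted p = 0.0701). A second Slc7a6 probe set, also at background in Gr1hi, was at least 1.64-fold higher in Gr1lo. Its adjusted p was 0.00202 in a fit of single probe sets.

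Slc7a11, the light chain that imports cystine in exchange for glutamate and so supplies cysteine for glutathione, went the other way. It read 2.83, 2.62 and 2.76 in Gr1lo, where its mean lay at background, against 6.11, 6.02 and 5.02 in Gr1hi. The groups did not overlap, and it was at least 7.60-fold lower in Gr1lo (difference -2.98 ± 0.28, adjusted p = 1.43e-05). A second Slc7a11 probe set, also at background in Gr1lo, was at least 3.56-fold lower in Gr1lo. This is the gene with a CARE core on both strands of its promoter stretch.

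Slc7a7, an exchanger of the same type as Slc7a6, read 3.80, 3.81 and 3.90 in Gr1lo, against 4.17, 4.37 and 4.39 in Gr1hi, and was lower in Gr1lo by -0.48 ± 0.15 (adjusted p = 0.0219). It lost its call without both replicate 3 arrays (-0.47, adjusted p = 0.0866), on leaving out Gr1lo replicate 1 (adjusted p = 0.0799) or replicate 2 or 3 of Gr1hi (adjusted p = 0.0539 and 0.0587), and with hybridization control centring (-0.22, adjusted p = 0.454). The heavy chain Slc3a2, which these light chains need at the cell surface, read 6.34, 6.59 and 6.61 in Gr1lo, against 6.55, 6.96 and 6.87 in Gr1hi. The groups overlapped and it was not called (-0.28 ± 0.19, adjusted p = 0.228), though it was with median centring (-0.95, adjusted p = 0.001).

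The neutral Slc1 carriers differed in direction. Slc1a5, the sodium-dependent exchanger that brings glutamine into proliferating cells, read 6.70, 6.81 and 6.47 in Gr1lo, against 4.23, 3.98 and 4.24 in Gr1hi. The groups lay far apart, with a difference of 2.51 ± 0.19 (adjusted p = 3.99e-06, 5.69-fold). A second Slc1a5 probe set, with its Gr1hi mean at background, was at least 1.20-fold higher in Gr1lo. Slc1a4, a related exchanger of alanine, serine and cysteine, was lower in Gr1lo by -0.65 ± 0.19 (adjusted p = 0.0147), and lost its call with arrays centred on the hybridization controls (-0.39, adjusted p = 0.205) and without Gr1lo replicate 1 (adjusted p = 0.054) or Gr1hi replicate 1 (adjusted p = 0.061). A second Slc1a4 probe set gave -0.22 and was not called (adjusted p = 0.144 in a fit of single probe sets). Another Slc1a4 probe set lay at background in both groups. Of the glutamate carriers, Slc1a2, Slc1a3 and Slc1a6 were tested and not called.

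**Figure D2:**
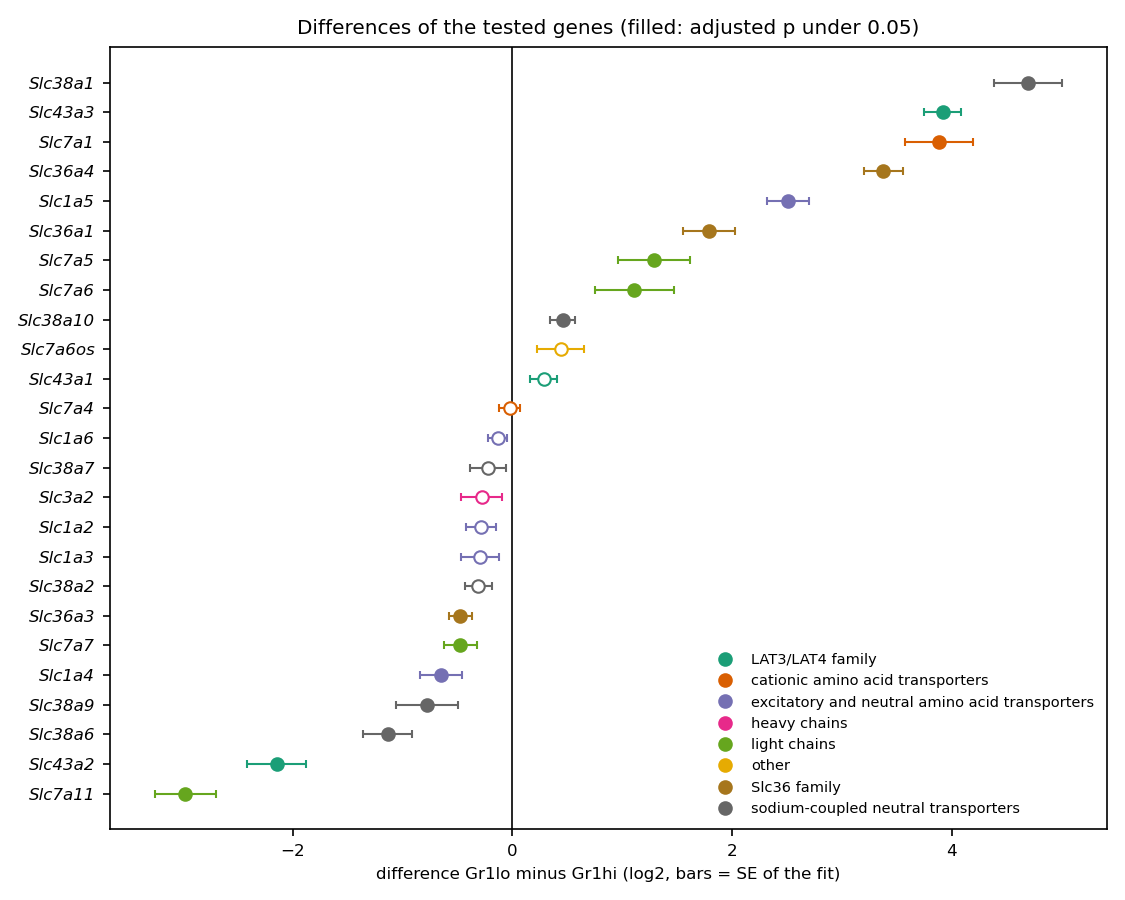
Difference of each tested member on the log2 scale, Gr1lo minus Gr1hi, with the standard error of the fit, coloured by role and filled where called. Slc38a1 at 4.70 and Slc7a11 at -2.98 mark the ends.

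The Slc36 carriers Slc36a4 and Slc36a1 were both higher in Gr1lo. Slc36a4 read 8.97, 9.22 and 9.04 in Gr1lo, against 5.87, 5.42 and 5.80 in Gr1hi, a difference of 3.38 ± 0.18 (adjusted p = 4.77e-07, 10.4-fold). Human SLC36A4 is known as a carrier of proline and tryptophan that is not coupled to protons. Slc36a1, which carries small neutral amino acids together with protons, read 6.57, 6.78 and 6.15 in Gr1lo, against 4.96, 4.39 and 4.79 in Gr1hi, a difference of 1.79 ± 0.24 (adjusted p = 0.000142, 3.46-fold). Neither gene's groups overlapped. Slc36a3 was called lower in Gr1lo, where it lay at background, against 2.78, 3.01 and 2.89 in Gr1hi, and no fold is drawn from levels so near the line. Its call was lost with arrays centred on the hybridization controls (adjusted p = 0.279).

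The Slc43 family was split. Slc43a3, known as a carrier of purine nucleobases rather than amino acids, read 10.29, 10.42 and 9.90 in Gr1lo, against 6.35, 6.39 and 6.12 in Gr1hi. The difference was 3.92 ± 0.17 (adjusted p = 2.12e-07, 15.1-fold), with no overlap. Slc43a2, a facilitative carrier of large neutral amino acids, read 5.92, 5.37 and 6.32 in Gr1lo, against 8.29, 7.66 and 8.10 in Gr1hi, and was lower in Gr1lo by -2.15 ± 0.27 (adjusted p = 9.34e-05, 4.43-fold). A second Slc43a2 probe set gave -0.87. Slc43a1, of the same carrier type, was at background in Gr1hi and not called.

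**Figure D3:**
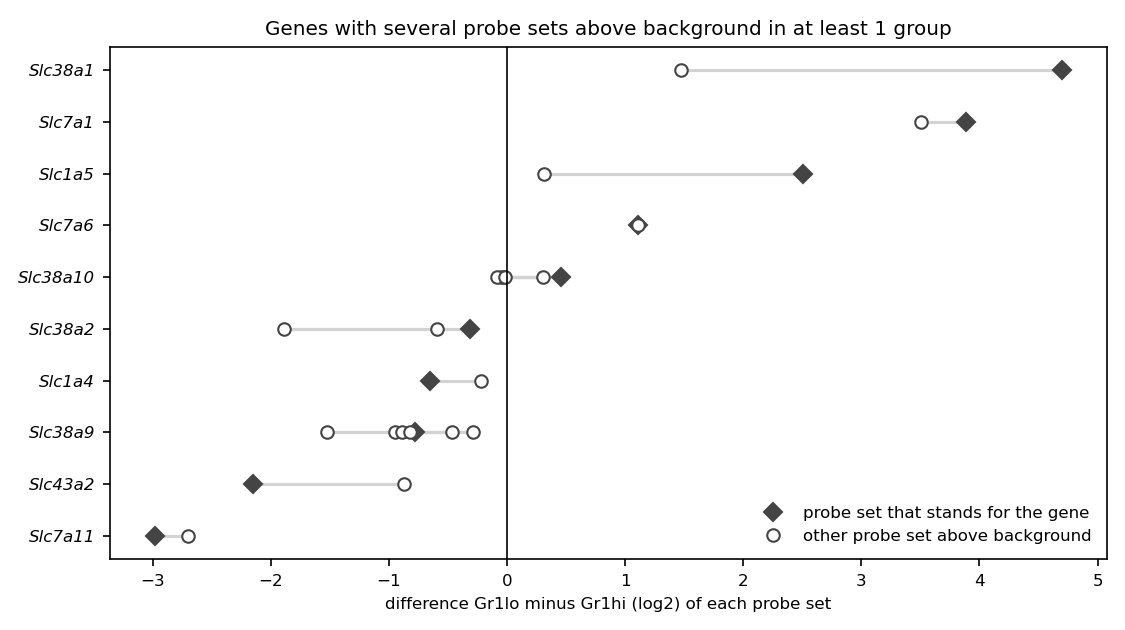
Difference (log2, Gr1lo minus Gr1hi) of each probe set of the 10 members with several probe sets above background, with filled diamonds for the one that stands for the gene; differences from a group at background are drawn as fitted. The Slc38a9 probe sets all lie below 0, and those of Slc38a10 lie on both sides.

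By fitted difference, 11 of the 25 tested members (44%) were called, at least 2-fold apart and without overlap. They were 8 higher (32% of the tested members) and 3 lower (12%) in Gr1lo. Over all tested genes the share was 29.9% (19.4% higher and 10.6% lower). Slc7a6 is among the 11, but with Gr1hi at background it was only bounded as at least 1.87-fold higher. Without both replicate 3 arrays all 11 kept their calls, and their differences were 1.02 times (Slc43a3) to 1.41 times (Slc7a6) those over 6 arrays. Gr1lo replicate 2 was the highest Gr1lo array in 9 of the 9 members called higher, and in 68.6% of all genes called higher. It was the lowest in 5 of the 7 called lower, and in 65.1% of all genes called lower. Its lead over the mean of the other Gr1lo arrays was 1.49 for Slc7a6, 1.23 for Slc7a5, 1.04 for Slc7a1 and 0.89 for Slc38a1, but 0.22 for Slc36a4 and Slc1a5. Leaving out Gr1lo replicate 2 brought the differences of Slc7a5 (0.88, adjusted p = 0.00472) and Slc7a6 (0.62, adjusted p = 0.0116) below 2-fold, with both still called. What sets this array apart was not tested.

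Genes that act with the carriers were read from lists of the pathway, and leaving out both replicate 3 arrays moved no list's count in either direction by more than 1. The counts stand beside the shares of all tested genes, 31.8% called higher and 24.6% lower. With median centring these shares were 18.2% and 65.5%, and with hybridization control centring 38.1% and 14.6%. The lists are small and were not tested as sets. Of 18 tested genes of the ATF4 and amino acid response, 9 were higher and 6 lower in Gr1lo. Psat1, of serine synthesis, was higher in Gr1lo, at 9.78 ± 0.36 in Gr1lo and 5.51 ± 0.50 in Gr1hi (SD, adjusted p = 1.46e-06). Mthfd2, of mitochondrial one-carbon metabolism, was higher at 9.77 ± 0.14 in Gr1lo and 6.29 ± 0.38 in Gr1hi (adjusted p = 8.36e-07). Ddit3, the stress factor CHOP, was lower at 5.77 ± 0.12 in Gr1lo and 8.90 ± 0.15 in Gr1hi (adjusted p = 4.29e-07). The list's median difference was 0.25. With median centring 7 of its genes were higher and 9 lower, and with hybridization control centring 9 and 4.

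Of 29 tested genes of amino acid sensing by mTORC1, 8 were higher and 5 lower in Gr1lo (4 and 20 with median centring, 12 and 3 with hybridization control centring). Seh1l, a subunit of the GATOR2 complex, was 9.19 ± 0.37 in Gr1lo and 6.06 ± 0.48 in Gr1hi (adjusted p = 8.52e-06), and Lamtor2, of the Ragulator complex, was 10.90 ± 0.10 in Gr1lo and 9.64 ± 0.30 in Gr1hi (adjusted p = 7.03e-05). Fnip2, a folliculin partner, was lower, at 7.20 ± 0.36 in Gr1lo and 9.49 ± 0.47 in Gr1hi (adjusted p = 4.72e-05). Of 15 tested amino acid and peptide carriers outside the families 1 was higher and 3 lower (0 and 11 with median centring, 5 and 3 with hybridization control centring). Slc15a3, a lysosomal carrier of histidine and peptides, read 4.66 ± 0.88 in Gr1lo and 11.17 ± 0.04 in Gr1hi (adjusted p = 7.02e-07), Slc15a2, of peptides, 4.02 ± 0.57 in Gr1lo and 7.25 ± 1.05 in Gr1hi (adjusted p = 0.00034), and Slc6a6, of taurine, 10.50 ± 0.41 in Gr1lo and 12.34 ± 0.09 in Gr1hi (adjusted p = 1.9e-05).

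Of 8 tested mitochondrial amino acid carriers 3 were higher and 2 lower (2 and 5 with median centring). The ornithine carrier Slc25a15 was 4.85 ± 0.49 in Gr1lo and 3.00 ± 0.22 in Gr1hi (adjusted p = 0.000153), the aspartate and glutamate carrier Slc25a13 was at least 2.67-fold higher in Gr1lo, with Gr1hi at background (adjusted p = 0.000107), and the glycine carrier Slc25a38 was lower, 5.72 ± 0.25 in Gr1lo and 7.18 ± 0.04 in Gr1hi (adjusted p = 0.000112). Glutamine and glutamate enzymes gave 1 higher and 4 lower of 8 (1 and 7 with median centring, 2 and 1 with hybridization control centring). Ppat, the first step of purine synthesis, was higher at 7.51 ± 1.01 in Gr1lo and 3.93 ± 0.17 in Gr1hi (adjusted p = 7.18e-05), and Glul, which makes glutamine, was lower at 9.24 ± 0.46 in Gr1lo and 10.57 ± 0.20 in Gr1hi (adjusted p = 0.000487). Gfpt1, of hexosamine synthesis, was lower by -0.59 (adjusted p = 0.000503), a call lost with hybridization control centring (-0.33, adjusted p = 0.0896).

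Arginine enzymes gave 3 higher and 3 lower of 8 (2 and 5 with median centring, 3 and 1 with hybridization control centring). Odc1, which makes putrescine from ornithine, was 8.42 ± 0.66 in Gr1lo and 5.76 ± 0.13 in Gr1hi (adjusted p = 4.55e-05), and Oat was higher by 0.72 (adjusted p = 0.00115), a call lost with median centring (0.04). Arg2, mitochondrial arginase, was lower, with 8.05, 3.75 and 5.63 in Gr1lo and 12.06, 11.69 and 11.66 in Gr1hi (adjusted p = 0.000202). Branched chain enzymes gave 4 of 7 higher and 0 lower, beside 31.8% and 24.6% of all tested genes. With median centring they gave 4 and 3, beside 18.2% and 65.5%. Bckdk, the kinase that inhibits their oxidation, was 8.25 ± 0.21 in Gr1lo and 5.69 ± 0.13 in Gr1hi (adjusted p = 2.46e-06), Ivd, of leucine breakdown, was 4.77 ± 0.31 in Gr1lo and 3.00 ± 0.20 in Gr1hi (adjusted p = 3.93e-05), and Bckdhb was at least 1.99-fold higher in Gr1lo (adjusted p = 0.000379).

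For cysteine and glutathione, which Slc7a11 feeds, 1 of 6 enzymes was higher and 1 lower (1 and 5 with median centring, 1 and 0 with hybridization control centring). Gclc, the rate-limiting subunit of glutathione synthesis, was higher at 6.74 ± 0.28 in Gr1lo and 4.72 ± 0.08 in Gr1hi (adjusted p = 2.21e-05), opposite in direction to Slc7a11. Gsr, which regenerates glutathione, was lower by -0.46 (adjusted p = 0.00277), lost with hybridization control centring (-0.20, adjusted p = 0.227). Of the histidine enzymes 2 were tested and both were lower, Hdc, the gene that the reporter follows, at 10.86 ± 0.12 in Gr1lo and 12.33 ± 0.30 in Gr1hi (adjusted p = 1.85e-05), and Hal, which breaks histidine down, at 3.21 ± 0.21 in Gr1lo and 4.19 ± 0.31 in Gr1hi (adjusted p = 0.00171).

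**Figure D4:**
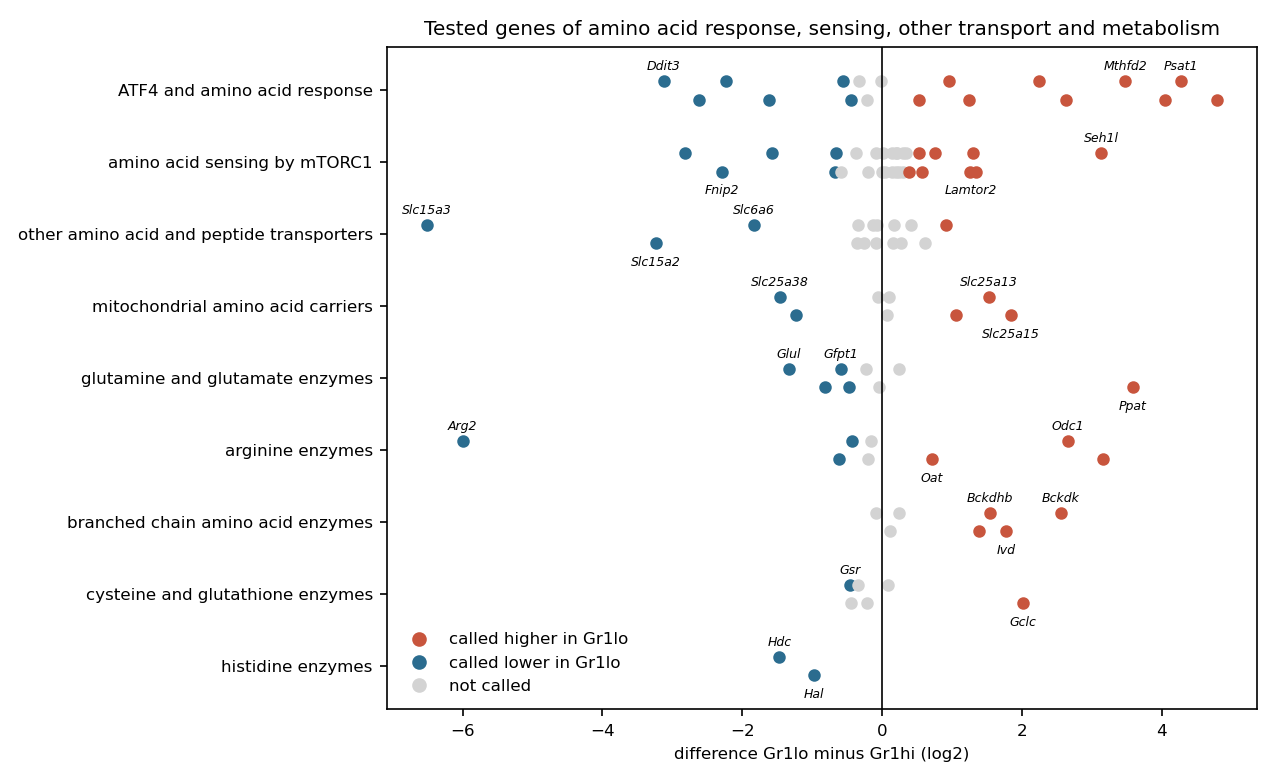
Difference (log2, Gr1lo minus Gr1hi) of each tested gene of the 9 pathway lists, 1 point per gene, coloured by its call. The ATF4 list has called genes on both sides of 0, and the branched chain list has 4 called above 0 and 0 called below. Over all tested genes 31.8% were called higher and 24.6% lower.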

How the data were processed

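RNA from sorted cells (100 ng per sample) was labelled with biotin for 3' arrays, per the labels. The deposited table gives log2 values per probe set, from GCRMA per the submitters' processing notes, and neither a version nor settings of GCRMA were given in the sources used here. The table held 45101 probe sets and no detection calls. The values ran from 0.87 to 15.01, with array medians of 2.86 to 2.94. The number of arrays limits the precision.

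Probe sets were named through the platform annotation, in which 34945 had 1 symbol, 932 several and 9160 none, with 64 controls set aside. RefSeq (GRCm38.p6) held 18031 of the genes and updated 0 symbols. A probe set with several symbols named a member and was not used. Genes were tested if they exceeded the array's own 40th percentile (2.57 to 2.68) on 3 or more of the 6 arrays. Gr1lo was compared with Gr1hi with limma 3.58.1 (R 4.3.3), two-sided, using lmFit and then eBayes with trended prior variances, with 4 residual and 5.10 prior degrees of freedom. A difference from a group at background is a bound, set by the background line.

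The genes named are the called members with a difference of at least 1 and groups that do not overlap, Slc1a5, Slc3a2, Slc7a1, Slc7a5, Slc7a11, Slc38a1 and Slc38a2, and the 3 called genes of each list with the smallest p. Other genes were named after their values were seen. The members and lists were chosen with earlier results of these data known. On simulated data for this comparison (12732 genes, 50 changed at each size) the fit recovered 12%, 64%, 92% and 100% at log2 changes of 0.5, 1, 2 and 4, with 1 false call. Far fewer genes changed there than the 56.4% called in the data, so these rates do not carry over to the data. Alternatives were other filters (none, 60th percentile), probe sets averaged per gene or taken alone, other eBayes priors, repeated quantile normalization, both centrings, array weights, the replicate block, a threshold of 0.01, and arrays left out. Figures and counts used Python 3.11.15, pandas 2.3.3 and matplotlib 3.10.9.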

Additional observations from a re-analysis of the deposited data

How the results depend on the processing

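Of 242 results of named members under the alternatives, 227 kept their direction and their side of the threshold, 5 lost the call, 9 gained one and 1 reversed: the Slc7a1 probe set at background gave -0.26 (adjusted p = 0.177). Named members were chosen in part by their calls in these data, so this count is no independent support for them. Of all called members, 7 lost the call under some of the 18 alternatives run on whole genes. The 9 members called higher in Gr1lo became 6 with median centring and 8 to 10 on leaving out each array. The 7 called lower became 15 with median centring, 3 with arrays centred on the hybridization controls, 4 at an adjusted p under 0.01, and 4 to 7 on leaving out each array, with 4 without Gr1lo replicate 1. The members' median difference of -0.14 moved to -0.81 with median centring and to 0.12 with hybridization control centring, and ran from -0.16 to -0.09 on leaving out each array. Over all genes 4051 were called higher and 3126 lower in Gr1lo, against 18.2% and 65.5% of genes with median centring, and 38.1% and 14.6% with hybridization control centring. With the olfactory receptor probe sets as the background line, 18 genes lay at background in place of 19. With the replicate number as a block, 9 members were called higher and 8 lower. The pairing check gave correlations of 0.17, 0.00 and 0.15 between arrays of the same number. Between arrays of different numbers they ran from -0.19 to 0.04. Xist was also high on both replicate 3 arrays alone. Whether equal numbers share a source was not settled, and the main fit did not pair the samples. The centring values differed between the groups (Gr1lo minus Gr1hi) by 0.67 for the median and by -0.26 for the hybridization controls. Centring takes that amount off the difference of every gene alike. The cause of these shifts and of the other changes was not tested. Signal near background limits the 19 dim genes.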
